A study of Mus musculus with 2 samples.

Results

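The endoplasmic reticulum (ER) of the liver cell folds large amounts of plasma protein, and proteins that fail to fold are removed by ER-associated degradation (ERAD). The report covers 10 genes of this machinery, chosen by symbol with no rule on their values. Earlier results of these data were known when they were chosen. They were found on the array as every probe set annotated with 1 of these symbols alone, which gave 24 of 45101 probe sets, for 10 of 18193 named genes. The CR group was a pool of liver RNA from 3 male C57BL/6J mice, whose food was cut by 20% for 1 week and then by 40% for 11 weeks (calorie restriction), and the AL group was a pool from 3 males of the same strain that fed ad libitum for the same 12 weeks. All mice were wild type, housed singly, 8 weeks old when the diets began and labelled as 5 months old. Each pool was hybridised to 1 Affymetrix array, so no test was possible, variation among mice was not measured, and precision is limited by there being 1 array a diet. The question was which of these genes differed in level between the diets.

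In ERAD, mannose-trimming proteins and lectins of the ER lumen pick out misfolded glycoproteins. A ubiquitin ligase complex in the ER membrane receives them, derlins help them cross back to the cytosol, and an ATPase pulls them out for the proteasome. Several of the genes are known targets of the unfolded protein response, in which the transcription factors XBP1 and ATF6 bind promoter elements together with NF-Y.

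All 10 genes had a lower intensity in the CR pool than in the AL pool on their brightest probe set, and 5 of them were at least 2-fold lower. These were Syvn1, Derl3, Edem2, Derl2 and Edem1, and none was 2-fold higher. Over all 12644 genes whose intensity reached the limit of 7.38 on at least 1 array, 52.1% were lower in CR by any amount, 2.79% at least 2-fold lower and 1.80% at least 2-fold higher. The limit is the median of all values of both arrays and is called the limit of the measured range here, and all 10 genes reached it in both pools on their brightest probe set. The median log2 difference, CR minus AL, was -0.996 over the 10 genes and -0.02 over all measured genes, of which the central 95% lay between -1.04 and 0.89. Of the 24 probe sets, 20 reached the limit and 4 did not. Of those 20, 19 were lower in CR, 1 was higher and 6 were at least 2-fold lower, against 2.97% of all measured probe sets. The probe sets of 1 gene did not always give the same size of difference. Among 4924 genes with several measured probe sets the median SD of their differences was 0.288 on the log2 scale, which serves below as the only measure of technical spread. It covers neither mice nor arrays.

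**Figure D1:**
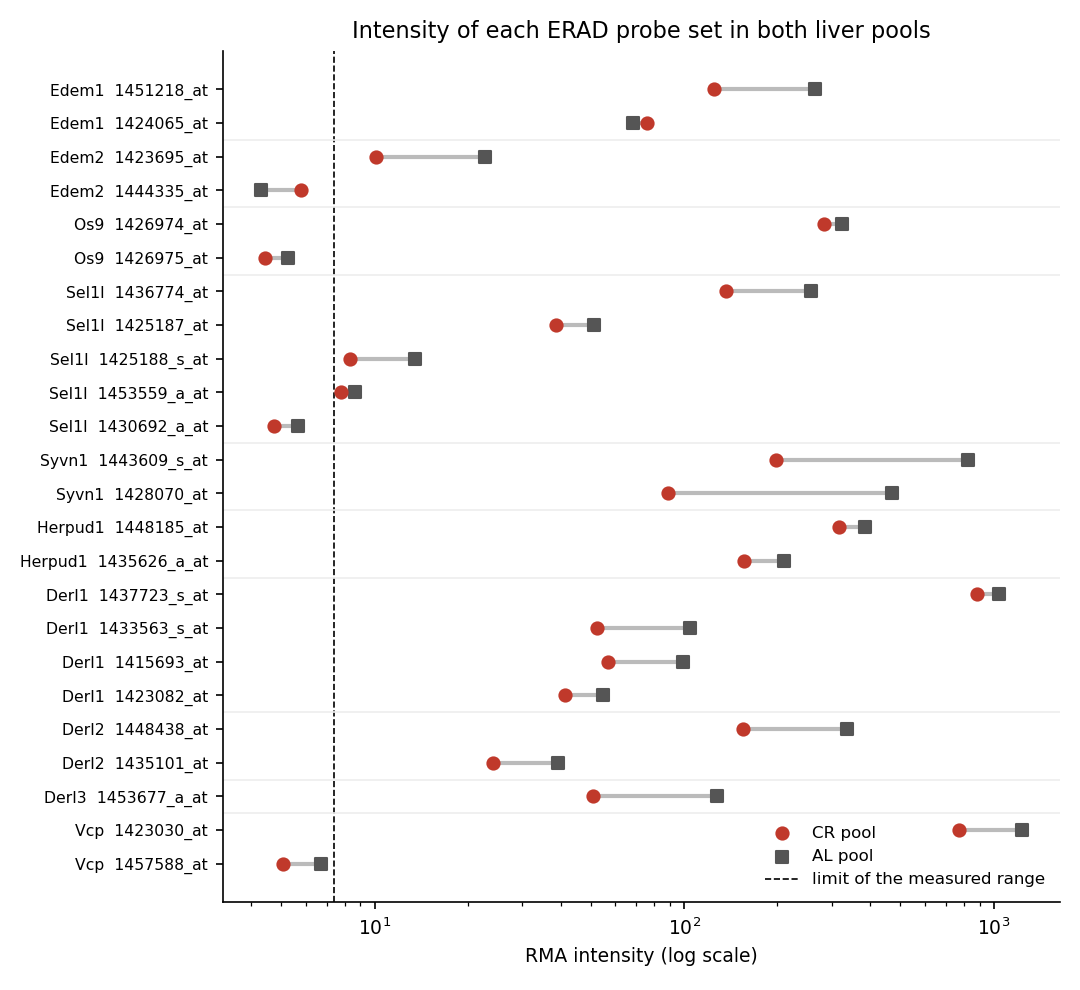
RMA intensity of each of the 24 probe sets on a log axis, with a red circle for the CR pool and a grey square for the AL pool. The CR circle lies left of the AL square in 22 of the 24 rows, and the 2 exceptions are 1 probe set each of Edem1 and Edem2. The dashed line is the limit of the measured range at 7.38.

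The ubiquitin ligase complex of the membrane held the gene with the largest difference and also 1 of the smallest. Syvn1 encodes HRD1, the RING ubiquitin ligase at the centre of the complex. Its probe set 1443609_s_at had an intensity of 199 in the CR pool and 826 in the AL pool, a log2 difference of -2.06, or 4.16-fold lower in CR. Its other probe set, 1428070_at, had 88.8 in CR and 471 in AL, a difference of -2.41, or 5.31-fold lower. Both probe sets thus lay past 2-fold in the same direction, 0.352 apart. Only 45 of all measured genes, Syvn1 included, had a difference as low or lower (0.356%).

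Sel1l, the adaptor that holds HRD1 stable and hands it lumenal substrates, was lower in CR on all 4 of its measured probe sets, none of them 2-fold. The brightest, 1436774_at, had 137 in CR and 258 in AL, a log2 difference of -0.91. The next, 1425187_at, had 38.7 in CR and 51.1 in AL, a difference of -0.40. The remaining measured pair were dim, 1425188_s_at with 8.36 in CR and 13.5 in AL and 1453559_a_at with 7.80 in CR and 8.65 in AL, close to the limit. The fifth, 1430692_a_at, was below the limit in both pools. Herpud1 encodes HERP, a stress-induced membrane protein with a ubiquitin-like domain that joins the HRD1 complex. Its probe set 1448185_at had 316 in CR and 384 in AL, a difference of -0.28. The other, 1435626_a_at, had 157 in CR and 210.4 in AL, a difference of -0.43. Herpud1 thus differed by little on either probe set, and 25.4% of measured genes were as low or lower. Its difference lay 1.77 above that of Syvn1, several times the technical spread.

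The promoters of this pair are shown because each holds a full ER stress element in the 300 bases around its start, although their differences were far apart. The windows are from RefSeq, build GRCm38.p6, 250 bases before to 50 bases after the annotated start, and capitals mark the element. The Syvn1 window is chr19:6046326-6046625 (plus strand) and its capitals are an ERSE, that is, CCAAT, 9 bases of any kind and CCACG. The Herpud1 window is chr8:94386179-94386478 (plus strand) and its capitals are an ERSE-II, that is, ATTGG, 1 base of any kind and CCACG.
Syvn1: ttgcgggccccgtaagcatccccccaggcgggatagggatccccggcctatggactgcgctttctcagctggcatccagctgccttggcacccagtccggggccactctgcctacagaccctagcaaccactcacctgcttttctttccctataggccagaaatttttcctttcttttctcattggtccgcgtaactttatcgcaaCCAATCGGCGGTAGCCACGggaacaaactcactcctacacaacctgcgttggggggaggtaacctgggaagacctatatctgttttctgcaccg
Herpud1: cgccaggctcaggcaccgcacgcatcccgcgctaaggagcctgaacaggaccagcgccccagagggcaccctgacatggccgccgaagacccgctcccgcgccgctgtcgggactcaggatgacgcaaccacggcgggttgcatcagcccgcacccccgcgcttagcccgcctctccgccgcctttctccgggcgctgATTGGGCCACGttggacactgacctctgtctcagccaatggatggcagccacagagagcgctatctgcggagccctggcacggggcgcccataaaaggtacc

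The derlins are rhomboid-like membrane proteins without protease activity that form part of the passage out of the ER. Derl3 had the second largest difference of the 10 genes, with 50.7 in the CR pool and 128 in the AL pool, a log2 difference of -1.33, or 2.51-fold lower in CR. It rests on a single probe set, 1453677_a_at, so no other probe set could agree or disagree. Derl2 had 155 in CR and 337 in AL on 1448438_at, a difference of -1.12, or 2.18-fold lower, and 24.1 in CR and 39.3 in AL on 1435101_at, a difference of -0.70. The dimmer Derl2 probe set was thus lower as well but short of 2-fold. Derl1 was lower on all 4 probe sets and 2-fold on none. Its brightest, 1437723_s_at, had 885 in CR and 1037 in AL, a difference of only -0.23. The other Derl1 probe sets ran from -0.99 for 1433563_s_at, with 52.4 in CR and 104 in AL, to -0.41 for 1423082_at, with 41.2 in CR and 54.8 in AL. The fourth, 1415693_at, lay between at -0.81, with 56.8 in CR and 99.5 in AL. The choice of the brightest probe set therefore placed Derl1 among the smallest differences, and the mean over its probe sets was -0.61. The order Derl3, Derl2, Derl1 held on the brightest probe sets, but Derl3 and Derl2 lay within the technical spread of each other.

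The Derl3 window is shown because, of the 9 genes with a promoter window, Derl3 was the other with an ERSE. It is chr10:75893148-75893447 (plus strand), and the ERSE lies on the opposite strand, so the capitals read as its reverse complement.
Derl3: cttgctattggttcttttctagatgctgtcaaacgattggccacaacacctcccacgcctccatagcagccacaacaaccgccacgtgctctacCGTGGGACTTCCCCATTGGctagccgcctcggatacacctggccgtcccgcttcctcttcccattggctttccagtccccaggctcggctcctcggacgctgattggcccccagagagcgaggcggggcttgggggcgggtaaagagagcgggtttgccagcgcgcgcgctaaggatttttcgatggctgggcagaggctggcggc

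The lumenal recognition genes gave values of unequal weight. Edem1 and Edem2 encode proteins related to alpha-mannosidases that promote the trimming of mannose from misfolded glycoproteins. Edem1 probe set 1451218_at had 125 in CR and 264 in AL, a log2 difference of -1.08, or 2.12-fold lower. The second Edem1 probe set, 1424065_at, had 76.1 in CR and 68.2 in AL, a difference of 0.16. The 2 Edem1 probe sets were 1.24 apart, an SD of 0.876 beside the technical spread, a median SD of 0.288. The direction of Edem1 depends on which is read. Edem2 probe set 1423695_at was dim, with 10.1 in CR and 22.7 in AL, a difference of -1.16. The other Edem2 probe set, 1444335_at, was below the limit in both pools, at 5.80 in CR and 4.29 in AL. Adding 16 to every intensity brought the Edem2 difference to -0.57. Os9 encodes a lectin that binds trimmed glycans and delivers proteins to SEL1L. It had 283 in CR and 324 in AL on 1426974_at, a difference of -0.19, the smallest of the 10 genes. Its other probe set, 1426975_at, was below the limit in both pools.

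Vcp encodes p97, the ATPase that pulls ubiquitinated proteins out of the ER membrane. Vcp had 769.9 in CR and 1232 in AL on 1423030_at, a log2 difference of -0.68, or 1.60-fold lower in CR, and 6.95% of measured genes were as low or lower. Its second probe set, 1457588_at, was below the limit in both pools, with 5.07 in CR and 6.70 in AL. p97 also acts outside the ER, in endosomal sorting, autophagy and chromatin, so its transcript is not specific to ERAD. The Vcp window is shown because it held the only UPRE among the 9 genes with a promoter window. It is the letters TGACGTGG in capitals, in chr4:43000458-43000757 (minus strand, printed as the gene reads).
Vcp: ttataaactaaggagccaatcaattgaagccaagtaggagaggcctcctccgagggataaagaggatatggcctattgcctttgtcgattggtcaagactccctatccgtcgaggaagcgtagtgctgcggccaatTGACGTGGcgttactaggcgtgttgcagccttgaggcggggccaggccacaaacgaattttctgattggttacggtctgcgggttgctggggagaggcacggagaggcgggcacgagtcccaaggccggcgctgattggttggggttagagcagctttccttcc

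**Figure D2:**
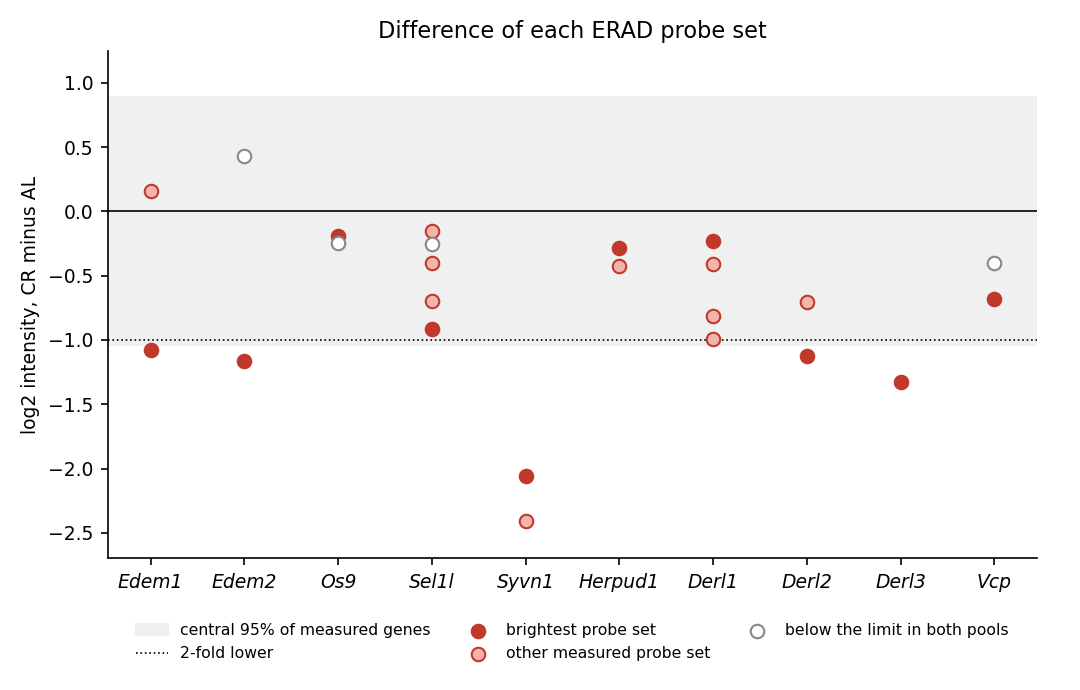
Log2 intensity difference, CR minus AL, of each of the 24 probe sets, by gene. Filled red points are the brightest probe set of a gene, pale points other measured probe sets and open points probe sets below the limit in both pools. The grey band is the central 95% of measured genes, and only the 2 Syvn1 points lie below -2.

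Ordered by difference, the genes ran Syvn1 (-2.06), Derl3 (-1.33), Edem2 (-1.16), Derl2 (-1.12), Edem1 (-1.08), Sel1l (-0.91), Vcp (-0.68), Herpud1 (-0.28), Derl1 (-0.23) and Os9 (-0.19). Neighbours in this order were closer than the technical spread of 0.288, with 2 exceptions. Syvn1 lay 0.726 below Derl3, and Vcp lay 0.395 below Herpud1. The spread is that of probe sets within 1 gene. A gap between 2 genes carries the spread of both, so the gap of 0.395 is not taken as a separation. Each functional step with several genes held larger and smaller differences. They ran from -1.16 to -0.19 among the lumenal genes, from -2.06 to -0.28 in the ligase complex and from -1.33 to -0.23 among the derlins. The extraction step held Vcp alone.

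Of the 10 genes, 9 had RefSeq promoter windows, 10 windows in all, and Derl1 had none in the table used. Both strands were searched. The ERSE occurred in 39 of 32851 windows of all genes (0.119%) and among the 10 windows in those of Syvn1 and Derl3. This pair had the largest differences, but Derl3 lay within the technical spread of Edem2, the next in order. In Syvn1 the match ran from 44 to 26 bases before the start, and in Derl3 from 156 to 138 bases before it. The ERSE-II occurred in 12 windows of all genes (0.0365%), Herpud1 among them, from 52 to 42 bases before the start. The UPRE letters occurred in 222 windows (0.676%), Vcp among them, from 114 to 107 bases before the start. The windows of Edem1, Edem2, Derl2, Sel1l and Os9 held none of the 3 elements. Shorter pieces were common. CCACG, which ends both the ERSE and the ERSE-II and whose reverse complement is part of the UPRE, was in 32.8% of all windows and in 9 of the 10. CCAAT, which opens the ERSE and lies reversed in the ERSE-II, was in 37.4% of all windows and in 8 of the 10. These matches describe letters in a window and show no binding, and a window without a match says only that these letters are not in it.

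**Figure D3:**
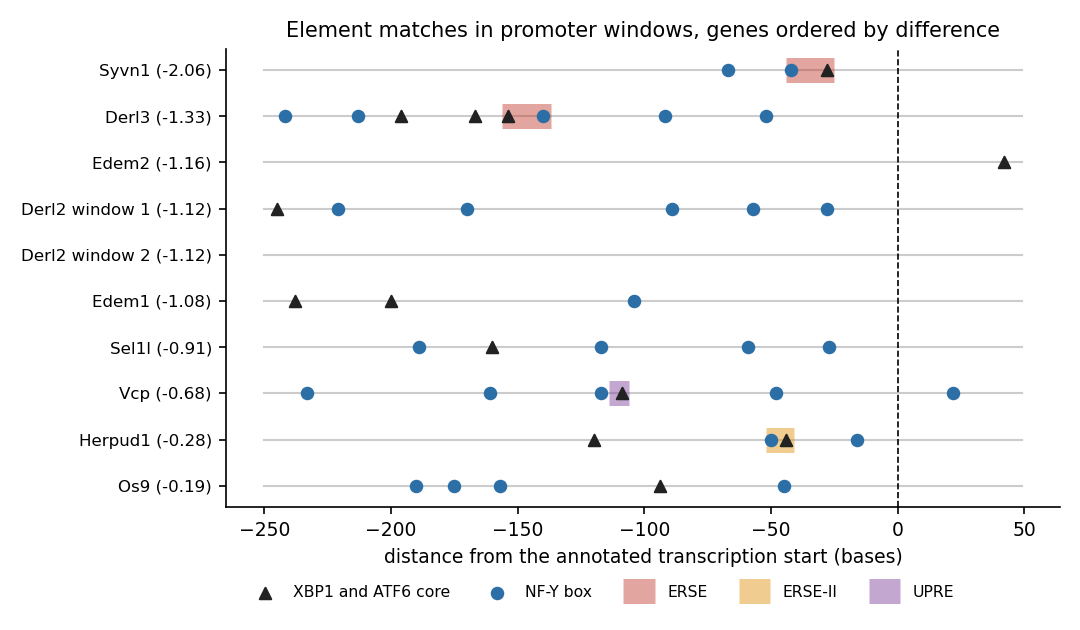
Positions of element matches in the 10 promoter windows, as distance in bases from the annotated transcription start (dashed line), genes ordered from the lowest log2 difference (in parentheses) at the top. Shaded boxes are full elements, blue circles the CCAAT box bound by NF-Y and black triangles the CCACG core. ERSE boxes appear in the top 2 rows, for Syvn1 and Derl3.

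The factors known to act on these elements were listed together with Ern1, which acts on Xbp1 RNA. Of the 6 genes measured, Xbp1 alone was past 2-fold on its brightest probe set. Xbp1 had 791 in CR and 2163 in AL, a log2 difference of -1.45, with its 4 probe sets between -3.33 and -0.41. Ern1, which encodes the sensor IRE1 that splices Xbp1 RNA, had 653 in CR and 1007 in AL, a difference of -0.62, with 3 probe sets from -0.62 to 0.06. Atf6 had 74.5 in CR and 48.9 in AL, a difference of 0.61, with probe sets down to -0.07, and the related Atf6b stood at 0.11. The NF-Y subunit genes Nfyb and Nfyc stood at -0.12 and 0.08, another Nfyb probe set lay at -1.02, and Nfya was below the limit. The array did not separate spliced from unspliced Xbp1 RNA.

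Other ERAD genes, listed by role, were mostly close to the typical gene. Of 63 such genes analysed here, 61 were measured. Of the 61, 39 were lower and 22 higher in CR, 1 was at least 2-fold lower and none 2-fold higher, with a median of -0.15. That is 63.9% lower by any amount and 1.64% at least 2-fold lower, beside 52.1% and 2.79% of all measured genes. The gene past 2-fold was Sdf2l1, an ER-lumen partner of the BiP chaperone system, with 12.1 in CR and 53.1 in AL, a log2 difference of -2.13 on its single probe set. The lumenal group of 9 measured genes, to which it belongs, had the lowest median, -0.54, with 6 lower and 3 higher. In it Dnajb9, a BiP co-chaperone, had 360.4 in CR and 678 in AL, a difference of -0.91. The highest value of that group was that of Erlec1, a lectin related to Os9, at 0.88 with 334 in CR and 182 in AL, named here after its value was seen.

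The cytosolic and membrane groups had medians close to 0. Membrane ligases and adaptors had a median of -0.11 over 20 genes, 12 lower and 8 higher, from Rhbdd1, an ER rhomboid protease, at -0.91 to Jkamp, a membrane protein that binds proteasomes, at 0.85. The Jkamp probe sets ran from -0.43 to 0.85, so its direction was not shared by all of them. Ubiquitin conjugation genes had a median of -0.14 over 8 genes, 5 lower and 3 higher. Among them Ube2j1, the membrane-anchored conjugating enzyme that works with HRD1, had 12.2 in CR and 22.3 in AL, a difference of -0.88, and Ube2g1, another conjugating enzyme, stood at 0.47. The p97 cofactors had a median of -0.09 over 11 genes, 7 lower and 4 higher. Nsfl1c, which encodes the cofactor p47, had 42.9 in CR and 84.2 in AL, a difference of -0.97, and the ER membrane cofactor Ubxn4 stood at -0.62, with probe sets up to 0.42. Genes of deubiquitination, deglycosylation and shuttling had a median of -0.15 over 13 genes, 9 lower and 4 higher, all between -0.34 and 0.38. The upper end was Ngly1, the enzyme that strips N-glycans, at 0.38, followed by the deubiquitinase gene Usp13 at 0.36, which was dim with 8.58 in CR and 6.68 in AL.

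**Figure D4:**
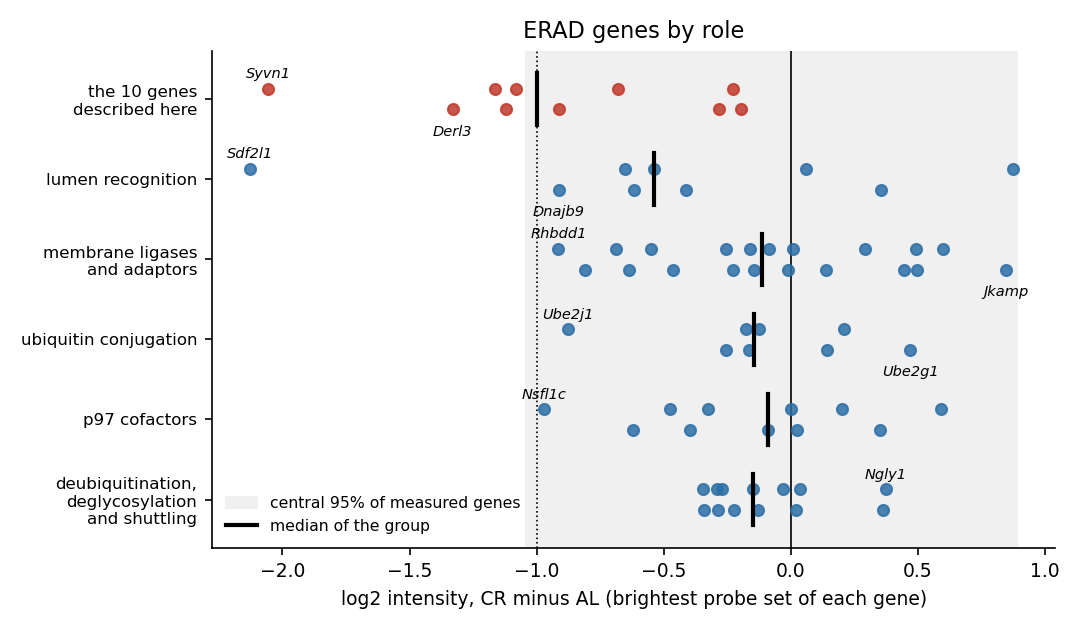
Log2 intensity difference, CR minus AL, of the 10 genes described here (red, top row) and of 61 other measured ERAD genes by role (blue), each gene by its brightest probe set, with the median of each row as a black bar. The grey band is the central 95% of measured genes and the dotted line 2-fold lower. The top row has its median at -0.996, and Sdf2l1 is the only blue point left of the dotted line.

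Transcripts of proteins reported to be turned over through HRD1 did not share a direction. Ern1 stood at -0.62 as given above, and Nfe2l2, the antioxidant regulator, at -0.22, with 103 in CR and 119 in AL. Creb3l3, a liver transcription factor made as an ER membrane protein, stood at 0.11, with 344 in CR and 319 in AL. Ppargc1b, a coactivator of mitochondrial and lipid genes, stood at 0.89, with 136 in CR and 73.5 in AL. These are RNA levels and carry no information on how fast the proteins are degraded.

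The tissue label was checked against markers, and in pooled whole liver fewer cells of a type cannot be told apart from less RNA per cell. Of 8 hepatocyte markers 7 had probe sets, all measured, between -0.24 and 0.43, among them albumin, Alb, with 11794 in CR and 12765 in AL. Plasma cells express Derl3 and other ERAD genes strongly. Of 9 plasma and B cell markers with probe sets, 3 were measured and 6 were below the limit in both pools, Cd79a and Ms4a1 among them. Their summed intensity was 1066 in CR and 788 in AL, most of it from Sdc1, which hepatocytes also express. The 3 measured were Jchain, with 27.95 in CR and 47.2 in AL, Mzb1, with 18.8 in CR and 18.4 in AL, and Sdc1, with 988 in CR and 692 in AL. Of 10 Kupffer cell markers 9 were lower in CR, with a median of -0.54 and a summed intensity of 2471 in CR and 2776 in AL. All 3 measured neutrophil markers were lower, S100a8 with 10.9 in CR and 53.4 in AL, and their summed intensity was 36.8 in CR and 110 in AL. Medians were 0.09 over 5 endothelial, 0.11 over 6 stellate and 0.29 over 3 cholangiocyte markers. Their part in the differences of the ERAD genes was not tested.

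Control probe sets that reflect both level and RNA quality also differed between the pools. The 3 beta-actin and 3 Gapdh control probe sets were lower in CR, from -1.61 to -0.67. The ratio of the 3' to the middle control was 20.4 in CR and 11.1 in AL for beta-actin, and 6.04 in CR and 4.46 in AL for Gapdh. The ratio of 3' to 5' was 89.7 in CR and 83.5 in AL for beta-actin and 53.2 in CR and 46.9 in AL for Gapdh. In both pools, not in CR alone, the 3' control was thus many times as bright as the 5' control. Spiked hybridisation controls were higher in CR, from 0.33 to 1.32. Scaling on all of these spikes, or on cre alone, moved the median over all measured genes to -1.04 or -0.40 and that of the 10 genes to -2.01 or -1.37. The gap between the 10 genes and the typical gene was by construction the same under each, and each difference is read against the typical gene. The part of RNA quality in the values was not tested.

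**Figure D5:**
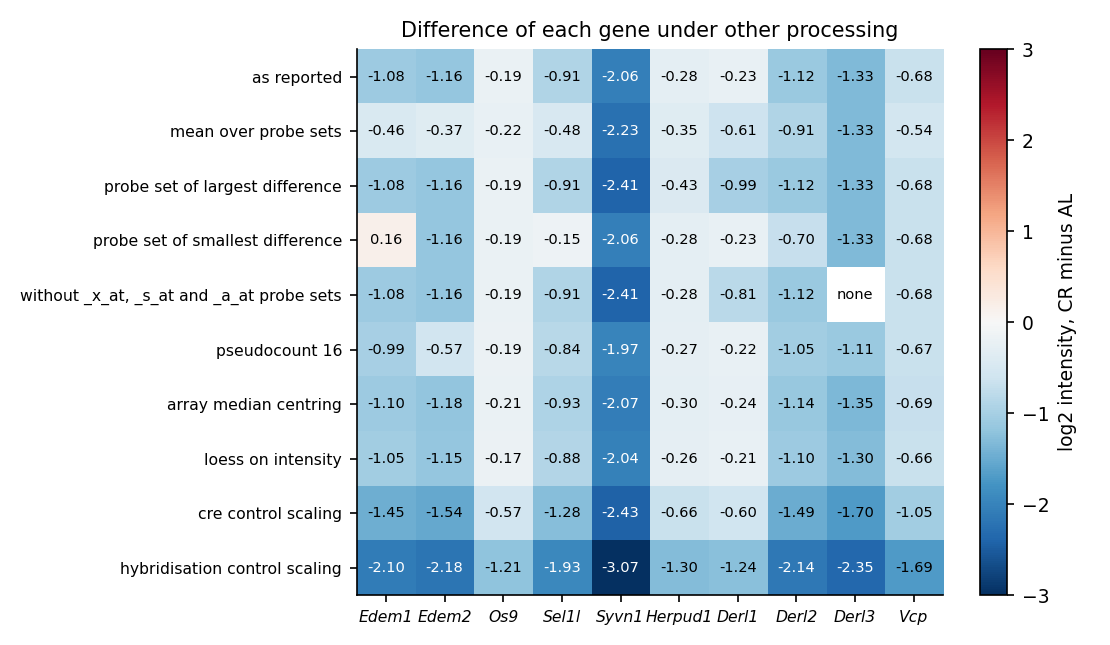
Log2 intensity difference, CR minus AL, of each of the 10 genes as reported (top row) and under 9 other ways of processing, colour from blue (lower in CR) to red (higher in CR), value printed in each cell. The only positive cell is Edem1 at 0.16, on its probe set of smallest difference, and Derl3 has no value once the _x_at, _s_at and _a_at probe sets are left out.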

How the data were processed

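The deposited table held 1 intensity per probe set and pool, which the authors computed with RMA (background correction, normalization between arrays and summary per probe set) according to the submitters' processing notes. The sources used here give no version or options. Per the labels' protocols, RNA of 3 mice per diet was pooled and labelled from 6 ug. The intensities are linear, with medians of 7.42 in CR and 7.35 in AL, and carry no detection calls. They were taken to log2 with no pseudocount. No column of another sample was present. Depth does not apply to arrays.

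Probe sets were named by the platform annotation of 2016, and all 10 gene IDs had the same symbol in the GRCm38.p6 gene table. Each gene is given by its brightest probe set (mean log2 intensity) and counts as measured if the higher value reached 7.38. Counts use a 2-fold size rule, not a test. In the wider list the text names the 2 largest absolute differences per role and every gene past 2-fold. H13 on the array was read as Hm13. Some listed genes are not reported here. The 10 genes, the lists and the rules were chosen with earlier results of these data known. The 12 alternatives were other ways to summarise a gene, no or a stricter limit (75th percentile), leaving out probe set types, centring on medians, loess (span 0.4), scaling on spikes, a pseudocount of 16 and a 1.5-fold threshold. The calculation was tested on simulated data. Calculations used pandas 2.3.3 and numpy 2.4.6 in Python 3.11.15, with loess from statsmodels 0.14.6 and figures from matplotlib 3.10.9.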

Additional observations from a re-analysis of the deposited data

How the results depend on the processing

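With 1 pool per diet no replicate could be left out. No paired analysis was possible because each diet had 1 array. The alternatives gave 109 values of single genes, which re-read the same 10 differences. Of these, 108 were below 0, and Edem1 changed sign, to 0.16, on its probe set of smallest difference. As reported, 52.1% of all measured genes were below 0, and scaling on spikes lowered every gene by 1 amount. Of the 109, 77 moved by less than 0.288, many because they could not move. Neither limit changed which probe set was read, centring shifted all genes alike by little, and genes with 1 measured probe set had no other to choose. These counts are therefore not a measure of robustness. Each count below is followed by the share of all measured genes at least as far below 0 under the same setting. The count of the 10 genes at least 2-fold lower, 5 as reported (2.79%), was 2 (Derl3 and Syvn1) with the mean over probe sets (2.02%), 3 (Derl3, Edem2 and Syvn1) on the probe set of smallest difference (2.00%), 3 (Derl2, Derl3 and Syvn1) with a pseudocount of 16 (1.23%), and 10 with scaling on the hybridisation controls, which put 54.2% of all genes past 2-fold. It was 4 of 9 without _x_at, _s_at and _a_at probe sets (2.92%), which removes Derl3, and 7 with scaling on cre (8.15%) or at 1.5-fold (9.49%). Syvn1 was past 2-fold under all 12. The median of the 10 genes, -0.996 as reported, was -0.51 with the mean over probe sets, -0.48 on the probe set of smallest difference, -2.01 on all hybridisation controls and -1.37 on cre. In the wider list of 61 genes the count past 2-fold was 1 as reported, which was lower (2.79%). With the mean over probe sets it was 2 of 58, Sdf2l1 and Selenok, both lower (2.02%). The probe set of largest difference gave 3, of which 2 were lower (4.24% of all genes). Scaling gave 40 on all hybridisation controls (54.2%) and 9 on cre (8.15%). At 1.5-fold the count was 15, of which 11 were lower (9.49%) and 4 higher. Low signal limits Edem2 and the dim Sel1l probe sets most. The limit of 7.38 is a median of values and not a measured background, and without detection calls values near it cannot be told from background.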

Other observations

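Outside the 10 genes, the ERSE occurred in the promoter windows of 17 other measured genes. Including Syvn1 and Derl3, 19 measured genes had an ERSE, and 16 of them were lower in CR, beside 52.1% of all measured genes. Of the 19, 8 were at least 2-fold lower and 1 at least 2-fold higher, beside 2.69% at least 2-fold lower among the 10141 measured genes whose windows held none. The 8 were Creld2 (-2.32), Pdia6 (-2.28), Hspa5 (-2.19), Calr (-2.15), Syvn1 (-2.06), Ero1b (-1.88), Derl3 (-1.33) and Hsp90b1 (-1.09). The gene past 2-fold in the other direction was Acacb, an acetyl-CoA carboxylase gene, at 1.06, with 129 in CR and 61.8 in AL. The median of the 19 was -0.71, and over the alternatives, which were run on this list after seeing the data, it lay between -1.73 (scaling on all hybridisation controls) and -0.35 (probe set of smallest difference). The count of 8 was 4 of 13 without _x_at, _s_at and _a_at probe sets (2.92% of all genes) and 16 of 19 with scaling on all hybridisation controls, which put 54.2% of all genes at least 2-fold lower. Several of these genes are known for the element, which was described in their promoters, so the share is not independent of how the element was found. The 8 measured genes with an ERSE-II had a median of -0.32 and 1 past 2-fold, Dnajb11, at -1.65. Among measured genes whose windows held no ERSE-II, 2.76% were at least 2-fold lower. The 115 measured genes with a UPRE had a median of -0.10 and 4 at least 2-fold lower (3.48%), close to 2.76% among those without one. These lists were made after the differences of the 10 genes were seen, and they were not tested.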
